A study of Mus musculus with 4 samples.

Results

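The serine/threonine phosphatases other than protein phosphatase 1 were examined in livers that lack NIPP1, to ask whether loss of this subunit of protein phosphatase 1 was met by changes in the transcripts of the other phosphatases. The members were all probes on the array whose gene name begins with Ppp2, Ppp3, Ppp4, Ppp5, Ppp6 or Ppm1. No measured value enters this rule, but it was chosen with earlier results of these data known. This rule found 62 probes for 44 of the 30175 gene names on the array, with 1 spot for each probe. Total liver RNA came from untreated male mice of a mixed strain at 2 months of age, 4 with a conditional liver NIPP1 knockout and 4 controls. Each of 4 two-colour arrays compared 1 knockout mouse with 1 control mouse, so that 8 different mice were measured. On replicates 1 and 2 the knockout sample was the one labelled with Cy3, and on replicates 3 and 4 it was the one labelled with Cy5. Replicate numbers only name the arrays. What drives the deletion, which exons it removes and which alleles the controls carry is not stated in the labels used here.

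Serine/threonine phosphatases remove phosphate from proteins and fall into families with different chemistry. The PPP family builds holoenzymes, in which a few catalytic subunits gain their targets from many regulatory subunits. It holds protein phosphatase 1, PP2A, calcineurin (also called PP2B), PP4, PP5 and PP6. PP2A joins a catalytic, a scaffold and a regulatory B subunit, and calcineurin is switched on by calcium. The PPM family consists of metal-dependent enzymes that mostly act as single chains, among them PPM1D, a brake on the DNA damage response, and PPM1K, which activates branched-chain amino acid breakdown in mitochondria. The gene Ppp1r8 encodes NIPP1, which binds protein phosphatase 1 in the nucleus and steers it toward certain targets.

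The first 30 bases of 5 probes of 60 bases are given. Of these, 3 differed with an adjusted p under 0.1 in limma and with knockout and control signals that did not overlap. The Ppp2ca pair gave different answers for 1 gene. Each of those 3 differences rests on 1 probe. Ppp6c and Ppm1d have no other probe among the members, and the second Ppp3cc probe was too dim to test. Positions on mm9 are those the array files give for the probe. The Ppp6c probe lies at chr2:39052338-39052397 on the minus strand, the Ppm1d probe at chr11:85160442-85160501 on the plus strand, and the Ppp3cc probe at chr14:70617749-70617808 on the minus strand. The 2 Ppp2ca probes lie on the plus strand at chr11:51935900-51935959 and chr11:51941222-51941280. Whether these positions are coding or in an untranslated region was not analysed here. All letters are in lower case because no motif is marked.
Ppp6c A_51_P256282: ccggctgtaaacctcactgtcctttgttgg
Ppm1d A_55_P2028300: gtgaagtttttcttgctatttcaataacaa
Ppp3cc A_51_P245405: caactcaaacaacttaaacttggaggtgca
Ppp2ca A_52_P358076: ccctcttgttgtgtttctttcagggatacc
Ppp2ca A_55_P2288117: ctgaccagcgtgctacattcctatactgta

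Values are log2 knockout over control after background correction with an offset of 50 and normalization within each array. Such an offset pulls ratios of dim probes toward 0. Errors are standard errors (SE) of a linear model fitted to all probes in limma, with n = 4 arrays, unless stated otherwise. The model holds a dye term. Its errors therefore do not count how far the arrays with knockout in Cy3 stood from those with knockout in Cy5, although these were other animals. Adjusted p-values are two-sided and were corrected by Benjamini-Hochberg over 20845 probes. A probe entered the test if, in either genotype, 3 or more of its 4 mice gave a signal well above background. Of the 62 phosphatase probes, 47 were tested, for 37 gene names, and all 47 were well above background in all 8 channels. Between 52.7% and 56.3% of all spots reached that mark, depending on array and dye. RNA of the whole liver was measured, so fewer cells of a type and less RNA per cell cannot be told apart.

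The targeted gene checked the labels. Ppp1r8 probe A_52_P33014 read -0.60, -0.74, -0.74 and -0.63 on replicates 1 to 4, a fitted log2 ratio of -0.68 ± 0.05 with an adjusted p of 0.0523 in limma. Its second probe, A_55_P2179498, read -0.66, -0.59, -0.59 and -0.75, and the scanner software's processed signals gave -1.33 and -1.22 for the pair. On every array the knockout channel was thus the dimmer one. The 5 tested probes of the catalytic genes of protein phosphatase 1 itself lay between -0.02 for Ppp1cc and 0.14 for Ppp1ca, and none had an unadjusted p under 0.05.

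Differences of the other phosphatases between genotypes were about as large as those of all tested probes, with a median size of 0.088 against 0.093. None of the 47 probes passed an adjusted p of 0.05 in limma, and over all tested probes 36 passed, which is 0.173%. The smallest adjusted p of any probe in limma was 0.048, and the probes of the targeted gene Ppp1r8 did not pass. So few probes passed that the lack of calls at this threshold says little about the phosphatases. At an adjusted p of 0.1, 5 probes were called, 10.6% of those tested, against 6.72% of all probes. Of these, Ppp6c and Ppp4r4 were higher in the knockout (all probes 4.04%), and Ppm1d, Ppp3cc and 1 of 2 Ppp2ca probes were lower (all probes 2.68%). An unadjusted p under 0.05 was reached by 11 probes, 23.4%, beside 23.2% of all probes. Split by direction, 4 were higher, where the share over all probes was 12.8%, and 7 were lower, where it was 10.3%. These shares are near the background, so the counts do not set the phosphatases apart from other genes. Leaving out replicate 3 reduced the 11 probes to 5 (Ppp6c, Ppp3cc, Ppm1d, Ppp4r4 and 1 Ppp2ca probe). The share of all probes at that p without replicate 3 was not counted, so this drop has no background. Leaving out any of the 4 arrays in turn reduced the 36 calls over all probes to 0.

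The fitted log2 ratios of the 47 probes ran from -0.36 to 0.41, with 23 above 0 and 24 below. Their median was -0.0027, and the median over all tested probes was -8.0e-05. The median size without regard to sign was 0.088 for the phosphatases and 0.093 for all tested probes. On single arrays the phosphatase median was -0.05, -0.08, 0.01 and 0.02 on replicates 1 to 4. The 95% confidence interval lay within ±1 on the log2 scale for all 47 probes, also with processed signals, and within ±0.5 for 41 probes (34 with processed signals). The 6 whose interval reached past ±0.5 were Ppp6c, Ppp4r4, Ppm1k, 1 Ppp2ca probe and both Ppm1l probes.

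**Figure D1:**
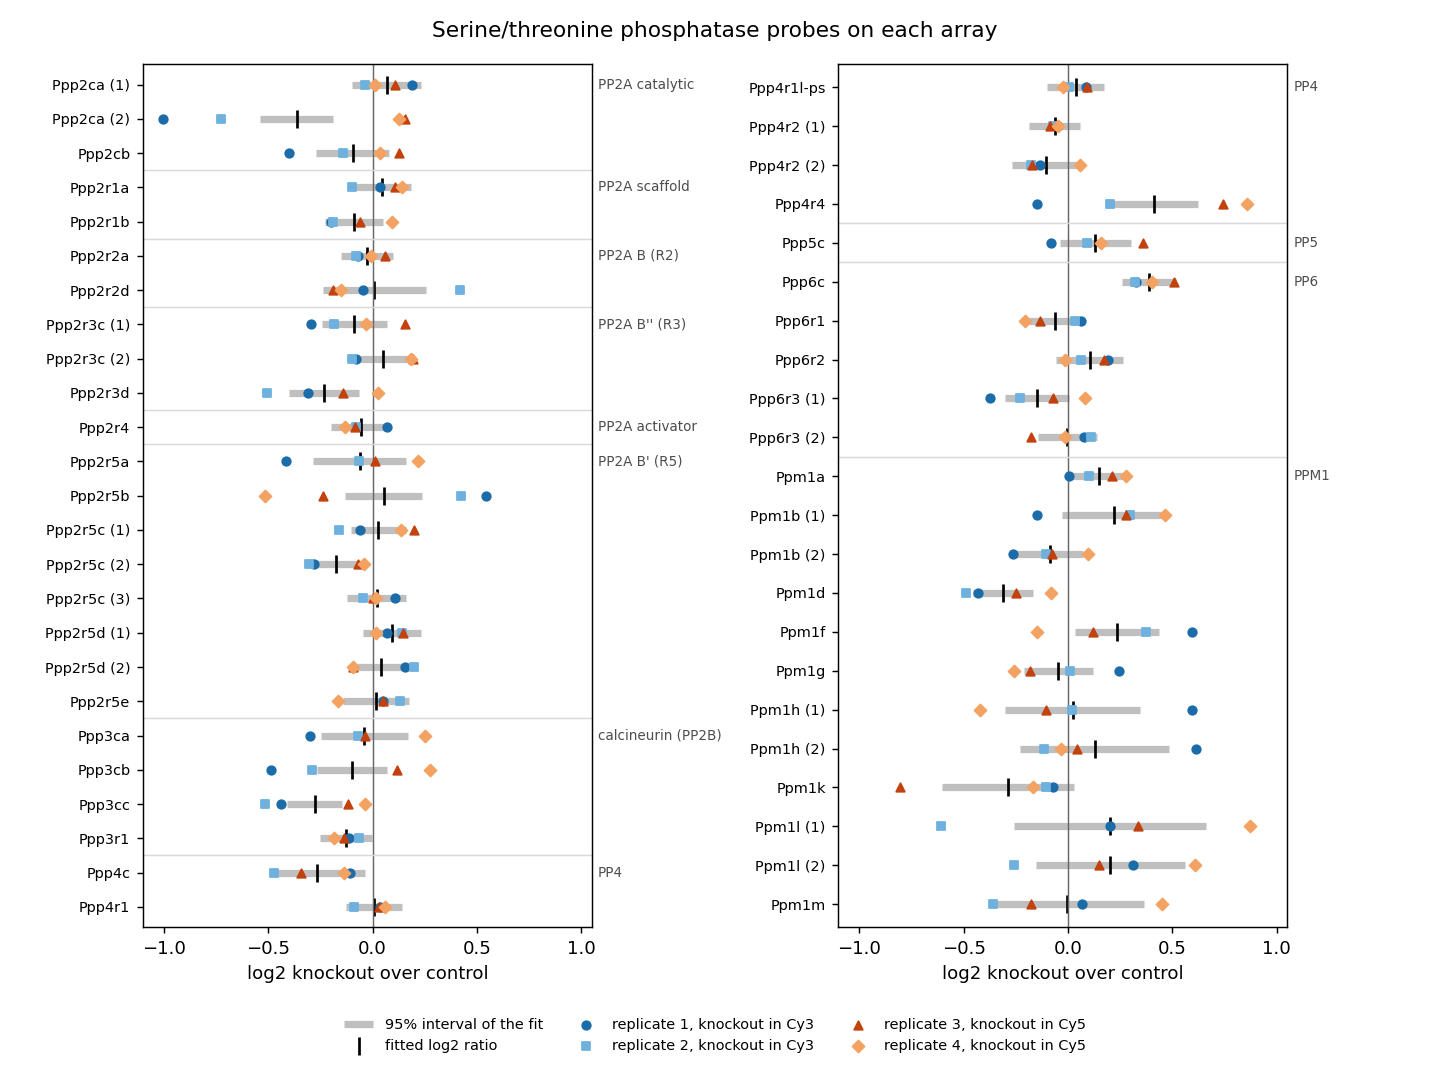
Log2 knockout over control (horizontal axis) of the 47 tested phosphatase probes on each of 4 arrays, grouped by role. Points are single arrays, black ticks the fitted ratios and grey bars their 95% confidence intervals. Where a gene has several tested probes, a number in brackets gives the place of the probe in order of identifier. Ppp2ca (2) is thus the single probe A_55_P2288117. Ppp6c sits above 0 on all 4 arrays, Ppm1d and Ppp3cc below 0 on all 4, and the points of Ppp2ca (2) and Ppp2r5b split by dye orientation.

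**Figure D2:**
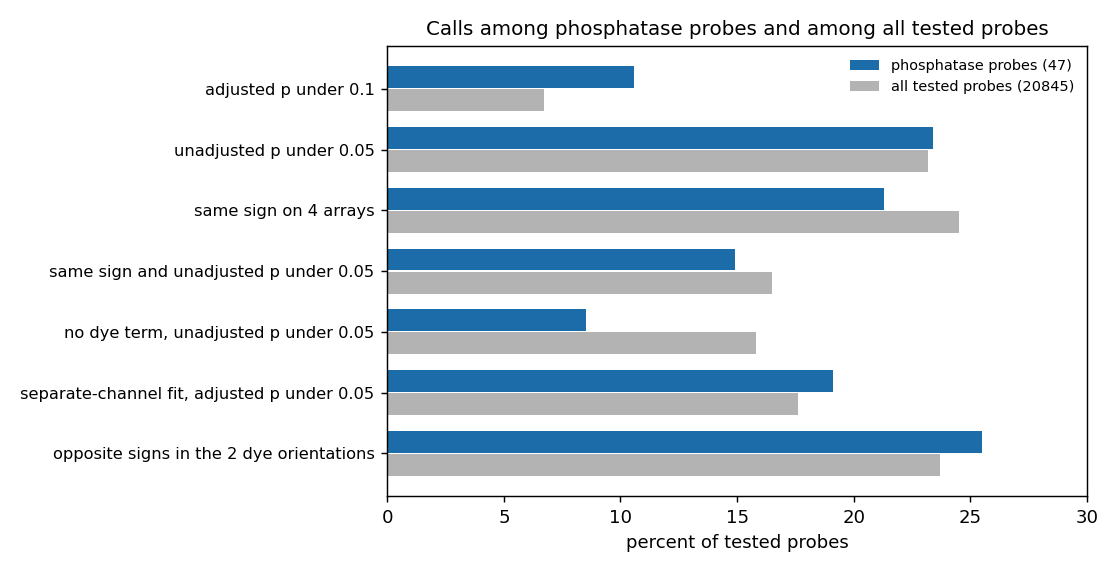
Percent of probes (horizontal axis) meeting each call rule among the 47 tested phosphatase probes (blue bars) and among all 20845 tested probes (20830 in the separate-channel fit; grey bars). The share was below that of all probes in the fit without a dye term, 8.51% against 15.8%, and above it for an adjusted p under 0.1, 10.6% against 6.72%.

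Further fits were read beside the model. A separate-channel fit takes the 8 channels as the units, with the array as a block and a dye term. It called 9 phosphatase probes at an adjusted p of 0.05 in limma, 19.1%, against 17.6% of all probes. Of the 9, 3 were higher (Ppp6c, Ppp4r4 and Ppm1f, against 10% of all probes) and 6 lower (Ppm1d, Ppp3cc, Ppp4c, Ppp2r3d and 1 probe each of Ppp2ca and Ppp2r5c, against 7.57%). Without the dye term, so that differences between orientations count as error, 4 probes kept an unadjusted p under 0.05, 8.51%, where 15.8% of all probes did. Those 4 were Ppp6c, Ppm1d, Ppp3cc and Ppp4c. Processed signals in place of the corrected ones gave 9 probes at an unadjusted p under 0.05, 19.1% against 22.4%, and all 9 were among the 11 above. With them 3 probes had an adjusted p under 0.1 (Ppp6c, Ppm1d and Ppp3cc), 6.38% against 4.9%.

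Agreement over arrays was read from signs. The same sign on all 4 arrays was seen for 10 probes, 21.3%, against 24.5% of all probes. It was positive for Ppp6c, Ppm1a and 1 Ppp2r5d probe (all probes 13.4%). It was negative for Ppm1d, Ppp3cc, Ppp3r1, Ppp4c, Ppm1k and 1 probe each of Ppp2r5c and Ppp4r2 (all probes 11.1%). Both the same sign and an unadjusted p under 0.05 held for 7 probes, 14.9% against 16.5%. For a single probe the exact sign-flip test over 4 arrays cannot go below a two-sided p of 0.125, so it passes no threshold here.

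Of the catalytic subunits, Ppp6c differed most evenly. PP6 is a PP2A-like phosphatase that acts in cell cycle, DNA repair and inflammatory signalling. Processed signals of Ppp6c were 3400, 3006, 3606 and 3265 in the knockout mice of replicates 1 to 4, and 2717, 2411, 2540 and 2468 in the control mice. Every knockout mouse lay above every control mouse. The log2 ratios were 0.32, 0.32, 0.51 and 0.40, a fitted 0.39 ± 0.05, or 1.31 times control, with an adjusted p of 0.0585 in limma. Over 16 other settings the ratio stayed between 0.36 and 0.45, and the adjusted p ran from 0.0016 to 0.261, under 0.05 in 3 of them. Of the 47 tested probes, Ppp6c alone had all knockout signals above all control signals, where 4.59% of all tested probes did.

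The other PP6 genes did not move with it. Ppp6r1, Ppp6r2 and Ppp6r3 encode the SAPS-domain subunits that bind PP6, and their 4 tested probes ranged from -0.15 to 0.10, none with an unadjusted p under 0.05. The ankyrin-repeat subunits of PP6 (Ankrd28, Ankrd44 and Ankrd52) had 3 tested probes between -0.04 and 0.08, also none with an unadjusted p under 0.05. One Ppp6r3 probe was lower on replicate 1 (-0.37) and near 0 on replicate 4 (0.08). Among markers of other liver cell types, 6 of 7 for bile duct cells had a fitted ratio above 0, and 5 were above 0 on all 4 arrays (all probes 13.4%). Their summed processed signal was 817 to 1060 in the knockout mice and 490 to 844 in controls. All 7 were well above background in some channel, and 4 in all 8 channels. Below 0 were 9 of 10 probes for sinusoidal endothelium, 9 of 11 for Kupffer cells, 5 of 7 for stellate cells and 4 of 4 for lymphocytes. The 2 Kupffer cell probes above 0 had an unadjusted p under 0.05 in limma, and none of those below 0 did. Their summed signals overlapped, 14800 to 29500 in knockout mice and 18400 to 25500 in controls. Hepatocyte probes were split, 5 above 0 and 5 below, and 7 of 11 pancreatic acinar probes were above 0. The median over all tested probes was -8.0e-05. The part of cell types in the Ppp6c difference, or in the lower phosphatase probes, was not tested.

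PP2A gave different answers from different probes. Ppp2ca encodes its main catalytic subunit, and probe A_52_P358076 read 0.19, -0.04, 0.11 and 0.01 on replicates 1 to 4, a fitted 0.07 ± 0.06 with an adjusted p of 0.561 in limma. Its processed signals ran from 2153 to 2810 in knockout mice and from 2223 to 2455 in control mice, and the groups overlapped. Probe A_55_P2288117, placed further along the same strand, read -1.01, -0.73, 0.15 and 0.12, a fitted -0.36 ± 0.06 with an adjusted p of 0.0844. Its signals were 294, 277, 467 and 397 in the knockout and 690, 501, 433 and 385 in control, so only the first pair of arrays showed a lower knockout. The probes differed by 1.19, 0.69, -0.05 and -0.11 on the 4 arrays, a mean of 0.43 ± 0.62 (SD, n = 4). Without the dye term the second probe had an adjusted p of 0.517. The beta isoform Ppp2cb read -0.40, -0.14, 0.13 and 0.03, a fitted -0.09 ± 0.06.

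The partners of PP2A varied about 0. The scaffold genes Ppp2r1a and Ppp2r1b had 1 tested probe each, at 0.05 and -0.09. Of the B55 type, Ppp2r2a and Ppp2r2d were at -0.02 and 0.01. Of the B'' type, Ppp2r3d read -0.31, -0.51, -0.14 and 0.03, a fitted -0.23 ± 0.06 with an adjusted p of 0.140 in limma, and both Ppp2r3c probes had sizes under 0.1. Its probe lies on an unplaced sequence of chromosome 9 and its processed signals were dim, 54 to 80 in the knockout and 78 to 113 in control. The processed ratio of Ppp2r3d was -0.49 ± 0.11. Ppp2r4, now named Ptpa, which helps PP2A fold into its active form, was at -0.06.

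The B56 type, encoded by Ppp2r5a to Ppp2r5e, had 8 tested probes between -0.17 and 0.09, with 6 above 0 and a median of 0.02. Ppp2r5c has 3 tested probes. One of them, A_55_P2105873, read -0.28, -0.31, -0.07 and -0.04, a fitted -0.17 ± 0.04 with an adjusted p of 0.131, and its processed signals were 248 to 285 in the knockout and 290 to 346 in control. The other two were at 0.03 and 0.02, and they lie on either side of it in the gene. Ppp2r5b split by orientation, with 0.54 and 0.42 in the arrays of knockout in Cy3 but -0.24 and -0.52 in those of knockout in Cy5, so that its fitted ratio was 0.05 ± 0.07.

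Calcineurin had 4 tested probes, all with a fitted ratio below 0 and a median of -0.11. On single arrays the median of these probes was -0.37, -0.18, -0.08 and 0.11 on replicates 1 to 4. An unadjusted p under 0.05 was reached by 2 of the 4, Ppp3cc and Ppp3r1, where 10.3% of all tested probes were lower at that p. Ppp3r1 lay at the threshold, with an unadjusted p of 0.0494 in limma, and was under 0.05 in only 4 of 16 other settings. With median centring in place of loess Ppp3ca turned to 0.02, and without replicate 1 or 3 to 0.02 or 0.03. Ppp3cc, the gamma catalytic subunit, read -0.44, -0.51, -0.12 and -0.04 on replicates 1 to 4, a fitted -0.28 ± 0.05, or 0.825 of control, with an adjusted p of 0.0819 in limma. Its processed signals were 43, 39, 58 and 59 in the knockout and 81, 85, 73 and 66 in control, dim but apart, and the processed ratio was -0.62 ± 0.08. The arrays with knockout in Cy3 gave a mean of -0.48 and those with knockout in Cy5 a mean of -0.08. Over 16 other settings Ppp3cc had an unadjusted p under 0.05 in limma in 15. With normexp fitted on every spot that p was 0.067 and the ratio -0.19. Ppp3r1, the calcium-binding regulatory subunit, read -0.11, -0.06, -0.14 and -0.19, close together over the arrays, a fitted -0.13 ± 0.05 and an adjusted p of 0.214. The brighter catalytic genes Ppp3ca and Ppp3cb were at -0.04 ± 0.08 and -0.10 ± 0.06, with unadjusted p-values of 0.640 and 0.183 in limma. Ppp3ca read -0.30, -0.07, -0.04 and 0.25 on replicates 1 to 4, and Ppp3cb read -0.49, -0.29, 0.12 and 0.27.

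Beside Ppp3cc, 2 other tested probes had all 4 knockout signals below all 4 control signals, Ppm1d and the Ppp2r5c probe A_55_P2105873. These 3 are 6.38% of the tested phosphatase probes, against 4.33% of all tested probes.

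**Figure D3:**
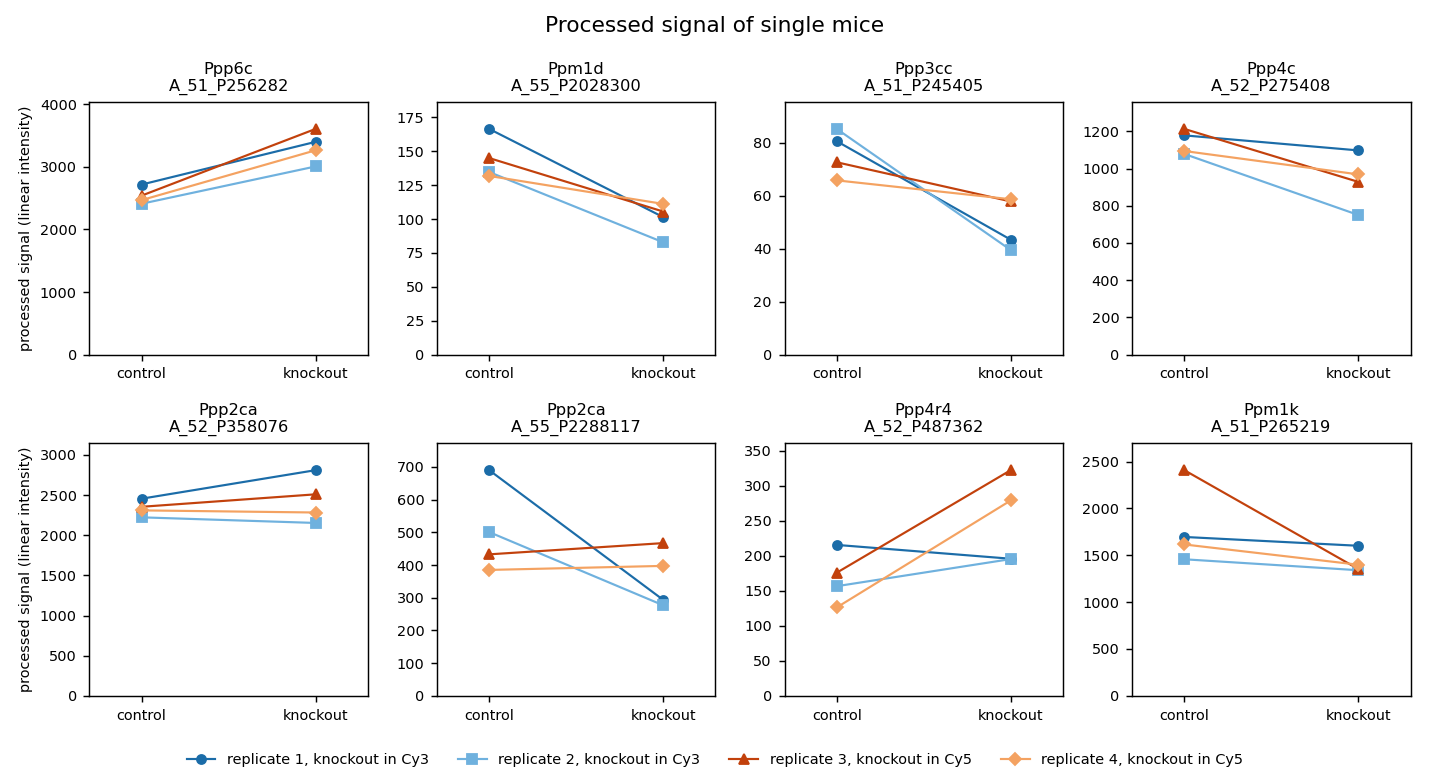
Processed signal, a linear intensity with the vertical axis starting at 0, of 8 phosphatase probes in control and knockout mice. Each line joins the 2 mice of 1 array, and the probe identifier stands under the gene. Knockout and control points of Ppp6c, Ppm1d and Ppp3cc do not overlap, while the 2 Ppp2ca probes show different patterns and the high control point of Ppm1k belongs to replicate 3.

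PP4, which acts in DNA repair and at centrosomes, was represented by 5 gene names and 6 tested probes. Its catalytic gene Ppp4c read -0.11, -0.47, -0.34 and -0.14, a fitted -0.26 ± 0.08, or 0.833 of control, with an adjusted p of 0.174 in limma. Processed signals of Ppp4c were 750 to 1098 in the knockout and 1078 to 1213 in control, an overlap at 1 knockout mouse. Without replicate 2 the fitted ratio of Ppp4c was -0.17 with an unadjusted p of 0.102 in limma, and without replicate 3 it was -0.21 with an unadjusted p of 0.129. The regulatory subunit Ppp4r4 had a fitted ratio of 0.41 ± 0.08 with an adjusted p of 0.0893. Its arrays did not agree, with -0.15 on replicate 1, 0.20 on replicate 2, 0.74 on replicate 3 and 0.86 on replicate 4, and without the dye term its adjusted p was 0.363. The remaining PP4 probes, for Ppp4r1, Ppp4r2 and the pseudogene Ppp4r1l-ps, lay between -0.11 and 0.04. Ppp5c, which encodes the heat shock protein-associated phosphatase PP5, read -0.08, 0.09, 0.36 and 0.16, a fitted 0.13 ± 0.06 with an adjusted p of 0.299.

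Among the PPM genes 12 probes for 9 gene names were tested, with 7 above 0 and a median of 0.08. Ppm1d, a target of p53 that turns off p53 and checkpoint kinases, read -0.43, -0.49, -0.25 and -0.08 on replicates 1 to 4. The fitted ratio was -0.31 ± 0.05, or 0.806 of control, with an adjusted p of 0.0798 in limma. Processed signals of Ppm1d were 101, 83, 106 and 111 in the knockout and 167, 135, 145 and 132 in control, and the groups did not overlap. The ratio from processed signals was larger, -0.53 ± 0.07. Over 16 other settings Ppm1d stayed negative with an unadjusted p under 0.05 each time, and the adjusted p ran from 0.0035 to 0.311.

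Ppm1a and Ppm1f had positive ratios with an unadjusted p under 0.05. Ppm1a, which dephosphorylates SMAD proteins and stress kinases, read 0.01, 0.10, 0.21 and 0.28, a fitted 0.15 ± 0.05 with an adjusted p of 0.181. Ppm1f, a phosphatase of calcium-dependent kinases, read 0.60, 0.37, 0.12 and -0.15, a fitted 0.23 ± 0.08 with an adjusted p of 0.174, and its last array went the other way.

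Ppm1k, the phosphatase that activates branched-chain ketoacid dehydrogenase, read -0.07, -0.10, -0.80 and -0.17, a fitted -0.29 ± 0.12 with an adjusted p of 0.244. Its knockout signals were close together at 1340 to 1601, and the control mouse of replicate 3 stood at 2408 while the other control mice were at 1457 to 1695. Without replicate 3 the fitted ratio of Ppm1k was -0.13.

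Both Ppm1l probes, for an enzyme of the endoplasmic reticulum, were at 0.20, and both were lowest on replicate 2 (-0.61 and -0.26) and highest on replicate 4 (0.87 and 0.61). Probe A_55_P1973011 of Ppm1l read 0.31, -0.26, 0.15 and 0.61 on replicates 1 to 4. The 2 probes of Ppm1b disagreed, at 0.22 ± 0.09 and -0.09 ± 0.06. Probe A_55_P2057523 of Ppm1b read -0.15, 0.30, 0.28 and 0.47, and was above the other on all 4 arrays by 0.31 ± 0.13 (SD, n = 4). Both tested Ppm1h probes stood out on replicate 1, at 0.59 and 0.61, while the other arrays ran from -0.42 to 0.04. On that same array 11 of 11 probes for pancreatic acinar cells were higher in the knockout mouse, with a median of 4.20 against -2.64, -0.16 and -1.07 on replicates 2 to 4. The summed processed signal of these acinar probes was 4440 to 88600 in knockout mice and 5470 to 16200 in control mice, with all 11 well above background in some channel. Their part in the Ppm1h values was not tested.

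Some members read differently by probe or by dye orientation. Of the 9 genes with several tested probes, 11 pairs could be formed, and 5 pairs had opposite signs, with mean differences of 0.14 to 0.43 in size. The share of such pairs over all genes was not counted, so this number has no background. Opposite signs in the 2 orientations, with both arrays of each alike, were seen for 12 probes, 25.5%, against 23.7% of all probes. That share is near the background and does not set the phosphatases apart. The dye term had an unadjusted p under 0.05 for 13 probes, 27.7% against 21.7%. Across the 47 probes the log2 ratios of replicates 1 and 2 correlated at r = 0.56 and those of replicates 3 and 4 at 0.65. Over all tested probes these r were 0.28 and 0.53. Between orientations r ran from -0.21 to 0.18, and over all tested probes the same 4 pairs ran from -0.25 to 0.27. Probes of an array share its hybridization and its 2 mice, so these values are descriptions only. Dye and mice cannot be told apart here, since the orientations held different animals.

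**Figure D4:**
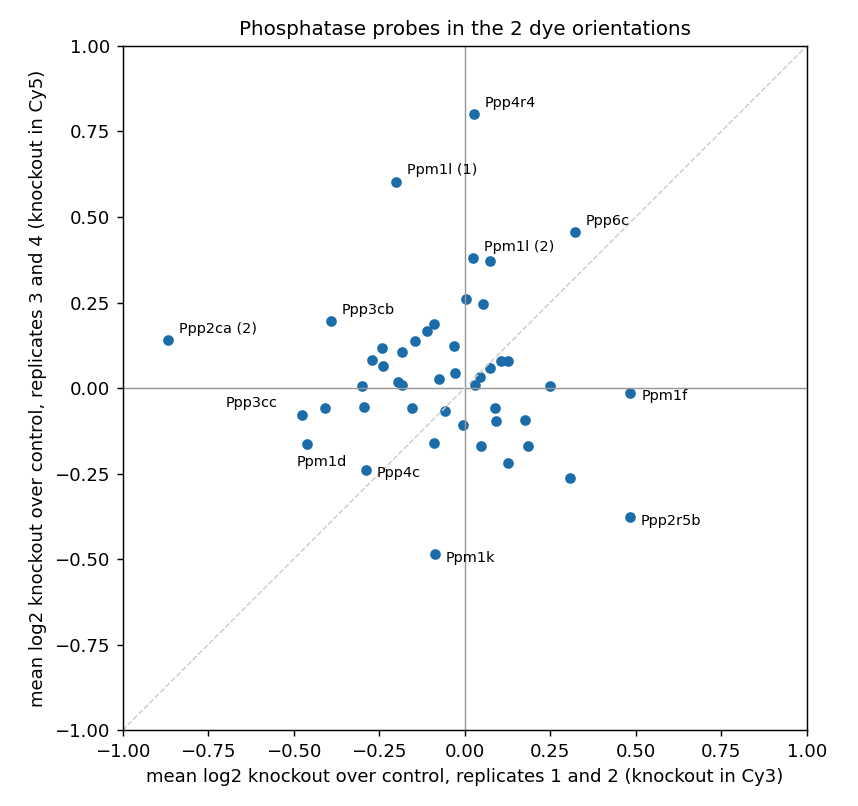
Mean log2 knockout over control of the 47 tested probes on replicates 1 and 2 (knockout in Cy3, horizontal axis) and on replicates 3 and 4 (knockout in Cy5, vertical axis). Each point is 1 probe and the dashed line marks equal values. Ppp6c lies near the line at 0.32 and 0.46 and Ppp4c at -0.29 and -0.24, while Ppp2ca (2) lies at -0.87 and 0.14 and Ppp2r5b at 0.48 and -0.38.

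The other 15 probes were too dim to test. Of these 12 were well above background in no channel, and the others in 1 or 2 of the 8 channels. No probe was tested for 7 gene names, namely Ppp2r2b, Ppp2r2c, Ppp2r3a, Ppp3r2, Ppm1e, Ppm1j and Ppm1n. A change of these genes was not detectable at the signal of these arrays. The other dim probes were second probes of genes measured elsewhere (Ppp2r1b, Ppp2r3d, Ppp3cc, Ppp6r2, Ppm1h and Ppm1m).

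Genes that act with these enzymes were read from lists of partners. Of 29 tested probes for inhibitors, modifiers and partners of PP2A-like enzymes, none passed an adjusted p of 0.1, 3 were higher and 6 lower at an unadjusted p under 0.05, and the median was -0.04. Over all tested probes 12.8% were higher and 10.3% lower at that p, which is the background for the counts of the other partner lists too. The 6 lower probes were those of Strn4 at -0.36 ± 0.09, Strn3 at -0.20 and -0.21, Mob4 at -0.20, Ppme1 at -0.18 and 1 of 2 Fgfr1op2 probes at -0.16, with adjusted p-values of 0.115 to 0.193 in limma. The second Fgfr1op2 probe was at -0.04. Ppme1, the esterase that removes the methyl group from the PP2A catalytic subunit, read 0.13 on replicate 1 and was below 0 on the other arrays. The 3 higher probes were Tiprl at 0.17, 1 of 2 Ensa probes at 0.27 and 1 of 2 Anp32e probes at 0.17. The second probes of Ensa and Anp32e were at 0.02 and -0.15.

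Regulators of calcineurin and NFAT factors had 21 tested probes, with 2 higher and 4 lower at an unadjusted p under 0.05. Of the lower ones, 1 had an adjusted p under 0.1 in limma, where 2.68% of all tested probes were lower at that threshold. Rcan2, an inhibitor of calcineurin, read 1.07, 1.27, 1.85 and -0.22, a fitted 1.0 ± 0.36 with an adjusted p of 0.205, and the 4 arrays did not share a sign. The 6 probes of the dehydrogenase complex that PPM1K acts on and its kinase lay between -0.30 and -0.0038. Bckdk, that kinase, read -0.21, -0.37, -0.29 and -0.36, a fitted -0.30 ± 0.05 with an adjusted p of 0.0822. More distant relatives of both families had 11 tested probes, with a median of -0.10. At an unadjusted p under 0.05, 2 were higher, Tab1 and 1 of 2 tested Ilkap probes, and 2 lower, Phlpp2 and 1 of 2 tested Pdp1 probes.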

How the data were processed

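Total liver RNA of 8 mice was hybridised to 4 two-colour arrays. Images were read with Agilent Feature Extraction 10.7.3.1, per the file headers. The deposited files hold mean and background intensities, processed intensities and marks for each spot. The authors' value table of log2 ratios matched log2 knockout over control from the processed signals within 0.0001 at all 43020 spots on every array, with no centring added; its column medians were -0.05, 0.14, -0.18 and -0.18. The files do not state coding or untranslated position.

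Background was corrected with normexp (offset 50). Its parameters were fitted without spots marked for non-uniform background, since with every spot the fitted background of replicate 1 was -273 in Cy3 and -185 in Cy5. Loess within arrays followed. Outlier-marked spots were left out, which touched no phosphatase probe. A dye term and the knockout effect were fitted in limma 3.58.1 under R 4.3.3, and figures drawn with matplotlib 3.10.9. Only the model fit was tested on simulated log2 ratios, with planted effects larger than any phosphatase ratio here. Background correction, loess and filtering were not part of that test. All arrays lay on 1 slide with 1 scan, and 4 arrays limit the precision. Each ratio sets a knockout mouse against the control mouse on its array, and the replicate number names that array.

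Members and lists were chosen with earlier results of these data known. Values on every array are given for PPP catalytic subunits, probes with an unadjusted p under 0.05, and the 5 largest ratios in each direction. Ppp2r5b, Ppm1h and the second Ppm1l probe, as well as the partner genes named, were chosen after their values were seen. RefSeq transcript records matched 57 of the 62 probes. Alternatives covered background, normalization, filters, model and arrays.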

Additional observations from a re-analysis of the deposited data

Results flagged for a closer look

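One value stood apart from the others of its probe. Ppm1k read -0.80 on replicate 3, and the gap from it to the nearest other array took a larger part of the range over the 4 arrays than Dixon's critical value allows. Chance alone sets apart about 1 in 20 groups, and 19 probes were looked at. The 3 other arrays lay between -0.17 and -0.07.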

How the results depend on the processing

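The median of the phosphatase probes moved by less than its spread over arrays in each of 16 settings and lay between -0.034 and 0.028. The 11 phosphatase probes with an unadjusted p under 0.05 became 4 without the dye term, 5 without replicate 3 and 8 without each of the other arrays. Elsewhere they numbered 8 to 15, and with median centring 7 of 12 were higher against 4 of 11. The phosphatase probes tested were 37 with 1 probe per gene, 62 without a filter and 47 otherwise. Over all probes the share at that p was 23.2% in the main fit, 22.4% with processed signals and 15.8% without the dye term. In the other settings it was not counted, so those counts and the split by direction have no background. No phosphatase probe passed an adjusted p of 0.05 in limma, but 1 did with median centring and 1 without a filter (Ppp6c, adjusted p 0.0480 and 0.0425), and 9 did in the separate-channel fit. The range of the adjusted p of Ppp6c over the 16 settings was 0.0016 to 0.261. Over all tested probes 0.173% passed. This share became 0.048% with processed signals, 0 with normexp fitted on every spot, 0.681% without background correction, 0.297% with an offset of 10, 1.58% with median centring, 1.28% without a filter, 0.961% for probes above background in all 8 channels, 0.307% without the dye term, 17.6% in the separate-channel fit, 0.523% with a trend and robust moderation, 0 with 1 probe per gene, and 0 without any one replicate. The cause was not tested. None of the 11 probes with an unadjusted p under 0.05 turned its sign in these settings. No block for slide or scan could be fitted, since the arrays share both. Each ratio already pairs the 2 mice of 1 array, and the separate-channel fit keeps the array as a block; the labels give no other pairing. The authors' value table holds the ratios of the processed signals. Dim signal limits the 15 probes that were not tested.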
